A study of Mus musculus and Homo sapiens with 10 samples.

Results

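The nuclear genes of the mitochondrial respiratory chain and ATP synthase were followed in embryonic stem cells given vitamin C (vitC). A gene was taken as a member if its symbol started with Nduf, Uqcr, Cox4 to Cox8 or Atp5, or was Sdha, Sdhb, Sdhc, Sdhd or Cyc1. The rule used names and no measured value, but it was set with earlier results of these data known. It gave 92 of the 25899 genes in the mouse table, and 101 of the 35720 genes in the human table under the same names in upper case. The mouse members comprised 36 subunits of complex I (7 core and 29 accessory), 5 complex I assembly genes, 4 genes of complex II, 9 of complex III, 20 of complex IV (with Ndufa4 and Ndufa4l2 placed there) and 15 of ATP synthase. A further 3 names did not belong to a complex, namely Cox4nb (an older symbol of Emc8), Atp5s and the pseudogene Atp5l-ps1.

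RNA-seq libraries came from E14 mouse ESCs (mESCs), an established line, grown in 2i medium with LIF, PD-035901 and CHIR-99021. In 4 cultures, cells treated with 100 µg/ml of vitC for 24 h were compared with untreated cells of the same culture label (10, 11, 35B and 35C). Primed human ESCs (hESCs, labelled H9) in KSR/FGF medium, which the study's methods give for H9-NK2 cells with doxycycline-inducible KLF2 and NANOG transgenes, gave 1 control and 1 vitC library of culture 43, so the human values have no replicates. The deposited values were on a variance-stabilised, log2-like scale, from which whole reads were recovered. Depth was 4489804 to 6921305 gene reads in the control and 3354852 to 5826923 in the vitC mESC libraries, and 15367652 and 17188555 in the hESC control and vitC libraries. All 7 pluripotency markers had reads in mESCs, with a summed level of 4951 to 5293 CPM (reads scaled to a common library total) in control and 4746 to 5290 in vitC libraries. By blocked limma 3 of the 7 were called lower and 1 higher with vitC, and between the culture sets described below 2 were higher and 3 lower, and of 4 primed markers 1 was lower with vitC and 2 were higher between the sets. The part of these markers in the mESC results was not tested. In hESCs, POU5F1 had 1034 and 1173 reads and SOX2 5423 and 6083 in control and vitC. NANOG had 643 and 847 and ZFP42 1113 and 1184. KLF4 (82 and 105), TFCP2L1 (7 and 9) and ESRRB (1 and 6) had fewer. Of the primed markers, DNMT3B had 7464 and 7937, ZIC2 3025 and 3403, OTX2 918 and 879, and FGF5 0 in both. In mESCs the fibroblast markers summed to 6.55 to 17.3 CPM in control and 11.3 to 16.0 in vitC libraries, with Dcn at 0, and the muscle markers Myod1, Myog and Actc1 were at 0. The fibroblast markers COL1A1 (18164 and 18881 reads) and COL1A2 (6443 and 6542) were also high in both hESC libraries, whereas DCN was at 0 in both. THY1 had 1933 and 2202 reads, PDGFRB 955 and 1022 and LUM 7 and 17. Of the muscle markers, ACTC1 had 7019 and 6904 reads and DES 95 and 136, with MYOD1 and MYOG at 0. The part of these markers in the hESC results was not tested.

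Complex I takes electrons from NADH and complex II from succinate, both pass them through ubiquinone to complex III and then, via cytochrome c, to complex IV, which reduces oxygen. Complexes I, III and IV pump protons, and ATP synthase uses the proton gradient to make ATP. Most subunits are encoded in the nucleus and a few in mitochondrial DNA, and embryonic stem cells are known for drawing strongly on glycolysis beside respiration. The 13 protein-coding mitochondrial genes were listed at 0 reads in every library of both species, so the subunits encoded in mitochondrial DNA were not measured here.

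In mESCs, the members differed widely in level. On a scale per transcript length (RPKM, reads scaled to the principal transcript and to the library total), the catalytic ATP synthase subunit beta, Atp5b, was highest at 1115 ± 69.6 (SD, n = 4) in control and 1101 ± 62.1 in vitC libraries, and its partner alpha, Atp5a1, followed at 583 ± 28.4 and 586 ± 31.9. The highest members of complex IV were Cox4i1 at 460 ± 51.7 RPKM in control and Cox8a at 369 ± 75.5, 2 neighbours whose SDs overlapped. In complex III, Uqcr10 was highest (318 ± 66.5 RPKM in control) and in complex II Sdhd (121 ± 14.2). The lowest core subunit of complex I was Ndufs3 at 28.8 ± 2.82 RPKM. The complex I assembly genes with a length lay lower, from 7.89 ± 1.57 for Ndufaf3 to 18.2 ± 1.27 for Ndufaf4. These levels depended on which transcript was taken as the length of a gene, and Atp5g1, with a long principal transcript, had only 16.2 ± 2.91 RPKM.

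To ask whether vitC altered these genes, the 8 mESC libraries were compared gene by gene, and no member passed the threshold in the unpaired comparison. Of the 88 members above the detection filter, 0 were called (limma, adjusted p under 0.05), against 0.342% of all 14631 genes tested. At an unadjusted p under 0.05, 1 member was higher and 4 were lower, against 655 higher and 465 lower of all 14631 genes. edgeR and DESeq2 on the recovered reads also called 0 members without pairing. Of all 14631 genes, edgeR called 35 higher and 3 lower, and DESeq2 102 higher and 16 lower. With so few genes called in general, 0 of 88 members does not set the members apart. The 4 members below the filter were Cox4i2, Cox8b, Cox8c and Ndufa4l2. In such bulk samples, fewer cells of a type and less RNA per cell cannot be told apart.

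With the replicate number as a block, which compares each vitC library with the control of its own culture, 8 members fell. The 8 that fell were the ATP synthase subunits Atp5k, Atp5j2, Atp5j and Atp5f1, Uqcrb of complex III, Cox7b and Cox7a2 of complex IV, and Ndufa1 of complex I. Cox7b2 was called higher, but it passed the detection filter only through the vitC libraries, where it is high, so its call is not read as a result. Over all genes, 4.44% were called lower and 6.36% higher by the same limma fit, so the 8 of 88 (9.09%) stood above the first of these shares. The blocked edgeR fit called 11 members lower, adding Sdha, Uqcrq and Ndufa7 to those 8, and Cox7b2 higher, against 6.07% lower and 7.24% higher over all genes. The blocked DESeq2 fit called only Atp5k (adjusted p = 0.0314), against 1.08% of genes lower and 2.43% higher. With 1 pair left out, fewer genes were called in general. Without culture 10, blocked limma called 0 members lower, against 2.14% of all genes lower and 3.81% higher, although the differences stayed between -0.24 (Atp5k) and -0.13 (Atp5f1) for the 7 members lower in 4 of 4 pairs, with adjusted p from 0.0531 to 0.0991. Without culture 11, 5 members were called lower (2.99% of all genes lower, 4.31% higher), without 35B 6 (3.63% and 5.19%) and without 35C 3 (2.34% and 4.22%). Ndufa1 and Atp5f1 were not called without any 1 of the 4 pairs. After quantile normalization, chosen after seeing the data, 11 were called lower, against 5.25% of all genes lower and 6.34% higher.

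**Figure D1:**
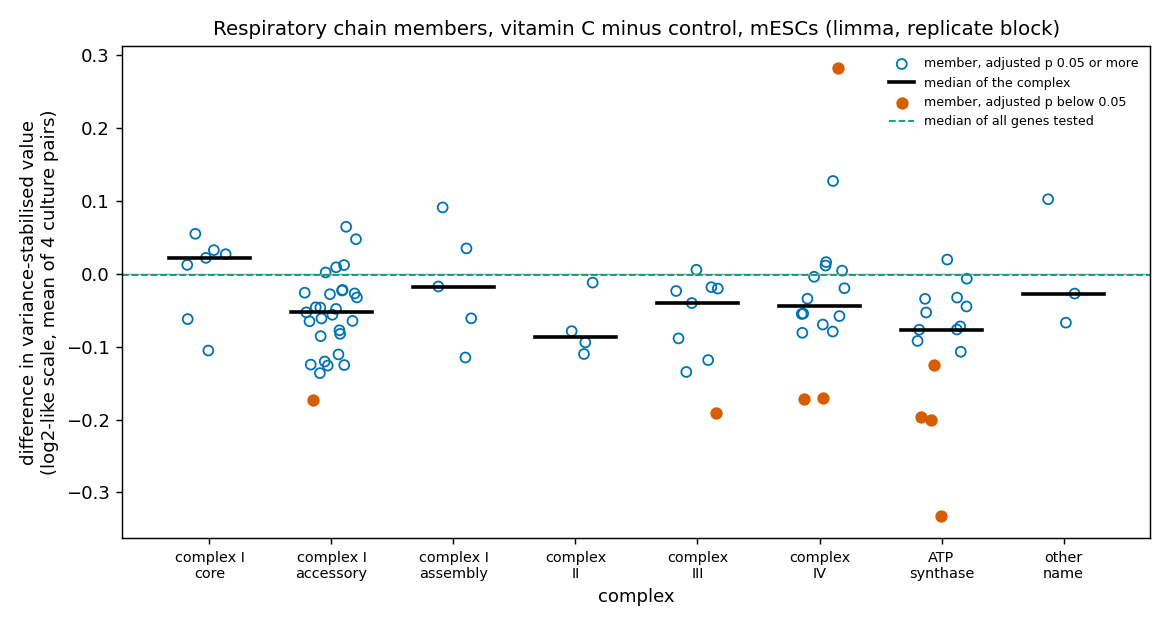
Difference between vitC and control in mESCs (vertical axis, variance-stabilised log2-like scale, mean of 4 culture pairs) for the 88 tested members by complex; filled points passed an adjusted p of 0.05 with the replicate block, bars are medians and the dashed line is the median of all genes tested. Most points lie below 0 in every complex but the complex I core, and the filled points below 0 include 4 of ATP synthase.

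Atp5k (chr5:108433244-108434448, minus strand, GRCm38, as for all mouse positions below), subunit e of the membrane part of ATP synthase, had the largest fall on the variance-stabilised scale. It was at 28.6, 17.4, 17.7 and 34.8 CPM in the control libraries of cultures 10, 11, 35B and 35C and at 12.7, 15.1, 14.6 and 18.5 CPM with vitC. All 4 pairs were lower, but cultures 10 and 35C moved far more than the other 2, and the vitC library of 35C lay above the controls of 11 and 35B, so the groups overlapped. The means were 24.6 ± 8.55 and 15.2 ± 2.41 CPM (SD, n = 4), a difference of -0.33 on the variance-stabilised scale (standard error 0.072, limma adjusted p = 0.00501 with the block and 0.537 without). On recovered reads, blocked edgeR gave a log2 fold change of -0.71 (adjusted p = 3.03e-05). The variance-stabilised difference is smaller because that scale compresses changes of genes with few reads.

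Atp5j (chr16:84827866-84835625), coupling factor 6 of the peripheral stalk, was at 88.0, 83.3, 91.5 and 107 CPM in control and 70.1, 75.2, 71.1 and 93.3 CPM with vitC. Each vitC library was below the control of its culture, and only that of 35C reached into the control range. The difference was -0.20 (standard error 0.044, limma adjusted p = 0.00707 with the block and 0.649 without). Atp5f1 (chr3:105942698-105960099), subunit b of the same stalk, was at 221, 203, 223 and 249 CPM in control and 204, 183, 203 and 218 CPM with vitC. The groups overlapped. Its fall was small, -0.13 (standard error 0.037, blocked limma adjusted p = 0.0336 and unpaired 0.772), and held in 4 of 4 pairs. Atp5j2 (chr5:145183698-145192062), subunit f, was at 86.8, 70.1, 63.9 and 107 CPM in control and 61.2, 70.1, 55.9 and 82.1 CPM with vitC. Culture 11 did not move, so its difference of -0.20 (blocked limma adjusted p = 0.0226 and unpaired 0.786) came from 3 of 4 pairs. Of the 15 ATP synthase members, 14 had a difference below 0, with a median of -0.08. The exception was Atp5a1, the alpha subunit, with a difference of 0.02 and means of 1437 ± 66.4 and 1451 ± 71.2 CPM.

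Uqcrb (chr13:66900617-66905378), a small subunit of complex III that lies near the ubiquinone site, was at 51.8, 47.1, 46.0 and 61.5 CPM in control and 41.0, 37.3, 42.0 and 48.3 CPM with vitC. Every pair was lower and 1 vitC library, that of 35C, lay within the control range. The difference was -0.19 (standard error 0.047, limma adjusted p = 0.0127 with the block and 0.619 without). In complex III, 8 of 9 members were below 0 (median -0.04), and Uqcrc2, a core protein, was at 0.01.

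In complex IV, Cox7b (chrX:106015700-106022450) and Cox7a2 (chr9:79755361-79759878), both small nuclear-encoded subunits, fell by similar amounts. Cox7b was at 121, 104, 115 and 148 CPM in control and 101, 97.2, 102 and 118 CPM with vitC. Cox7a2 was at 109, 121, 112 and 126 CPM in control and 93.8, 92.3, 102 and 116 CPM with vitC. All pairs were lower for both genes, with overlap between groups. Both differences were -0.17 (blocked limma adjusted p = 0.0146 for Cox7b and 0.0182 for Cox7a2, and 0.738 and 0.631 unpaired). Over the 16 tested members of complex IV, 11 were below 0, with a median of -0.04.

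Cox7b2 (chr5:71442824-71548205), a paralogue of Cox7b known from testis, had few reads. It had 2, 0, 0 and 1 reads in the control libraries and 5, 6, 3 and 4 with vitC. Each vitC library held more reads than any control, and the group sums of 3 and 18 gave a ratio of 7.11 with an exact 95% counting interval of 2.08 to 37.7. With reads in 2 of 4 control and 4 of 4 vitC libraries, it passed the filter only through the vitC libraries, where it is high. Neither its ratio nor its interval is therefore read as a result, and no p is given. Cox7b2 made up 0.889% of the summed Cox7b and Cox7b2 reads in vitC libraries.

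In complex I, Ndufa1 (chrX:37187588-37191163), a small membrane-bound accessory subunit encoded on the X chromosome, was at 32.7, 28.9, 23.4 and 30.2 CPM in control and 26.5, 24.1, 17.3 and 25.2 CPM with vitC. All 4 pairs moved down by similar amounts, from -0.14 to -0.23, while the groups overlapped. Its difference was -0.17 (standard error 0.049, blocked limma adjusted p = 0.0281 and unpaired 0.72). Of the 29 accessory subunits, 24 were below 0 (median -0.05), and by culture 28, 17, 14 and 22 were lower in 10, 11, 35B and 35C. The 7 core subunits, which carry the flavin and iron-sulphur centres, had 5 differences above 0 and a median of 0.02, and 0 of 7 were called. Whether they differ from the other subunits was not tested. Ndufv2, a core subunit, was at 150 ± 19.7 CPM in control and 137 ± 17.7 with vitC, lower in 4 of 4 pairs (blocked limma adjusted p = 0.102). Of the 5 assembly genes, 3 were below 0, from -0.11 for Ndufaf2 to 0.09 for Atp5sl.

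Succinate dehydrogenase, complex II, links the respiratory chain to the tricarboxylic acid (TCA) cycle. All 4 of its genes were below 0, with a median of -0.09, and none was called by blocked limma. The flavoprotein subunit Sdha was at 298, 295, 297 and 335 CPM in control and 268, 275, 276 and 303 CPM with vitC. Each pair was lower, and only the vitC library of 35C overlapped the controls. The difference was -0.11 (blocked limma adjusted p = 0.0502, unpaired 0.772), and blocked edgeR gave an adjusted p of 0.0265.

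**Figure D2:**
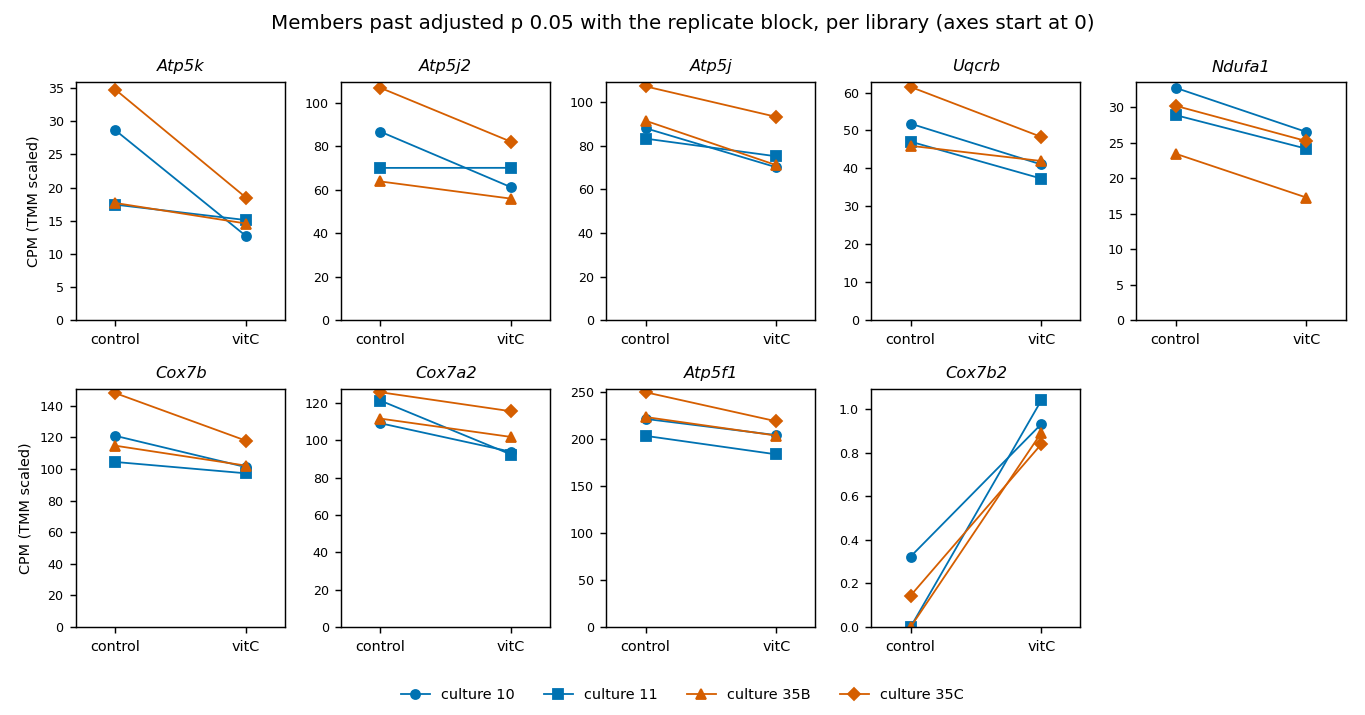
CPM after TMM scaling (vertical axes, each from 0) in control and vitC libraries of the 4 mESC cultures for the 9 members called by limma with the replicate block; each line joins the libraries of 1 culture. For 7 of the 8 falling genes every line goes down, for Atp5j2 the line of culture 11 is flat, and Cox7b2 reaches at most 1.04 CPM.

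Across all tested members, 68 of 88 (77.3%) had a difference below 0, against 51.0% of all genes tested, and the median difference was -0.05 against -0.002. By pair, 71, 52, 51 and 64 of 88 members were lower in cultures 10, 11, 35B and 35C. In all 4 pairs together, 28 members (31.8%) were lower and 4 (4.55%) higher, against 14.4% and 15.4% of all genes. These are counts over genes, which do not move independently, in the same libraries as the calls above.

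Many members are short, and transcript length moved with the response. Of 1132 tested genes with a principal transcript under 1000 bp, 67.3% were below 0, with a median of -0.03, and blocked limma called 8.04% lower and 2.12% higher. Of 11922 genes of 1000 bp or more, 49.3% were below 0, and 4.34% were called lower. Among members, 40 of 48 short ones were below 0 (median -0.05) with 6 called lower, and 26 of 37 longer ones (median -0.05) with 2 called lower. The part of transcript length in the falls was not tested.

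As a share of all gene reads, the members together held 1.13%, 1.07%, 1.22% and 1.34% in control and 1.06%, 1.04%, 1.19% and 1.29% in vitC libraries of cultures 10, 11, 35B and 35C. Each vitC library held less than its own control, with ratios of 0.942, 0.969, 0.972 and 0.963, but the groups overlapped, as the cultures differed more than the treatments. The means were 1.19 ± 0.118% and 1.14 ± 0.117% (SD, n = 4). ATP synthase held the largest share, 0.521 ± 0.0415% in control and 0.506 ± 0.0406% with vitC, and was lower in 4 of 4 pairs. The complex I core showed the least movement, at 0.0784 ± 0.00868% and 0.0777 ± 0.00913%, with pair ratios from 0.976 to 0.999. Complex II was at 0.0675 ± 0.00679% and 0.0628 ± 0.00781%, with ratios from 0.898 to 0.952. The differences between group means were smaller than the SD in each of these.

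**Figure D3:**
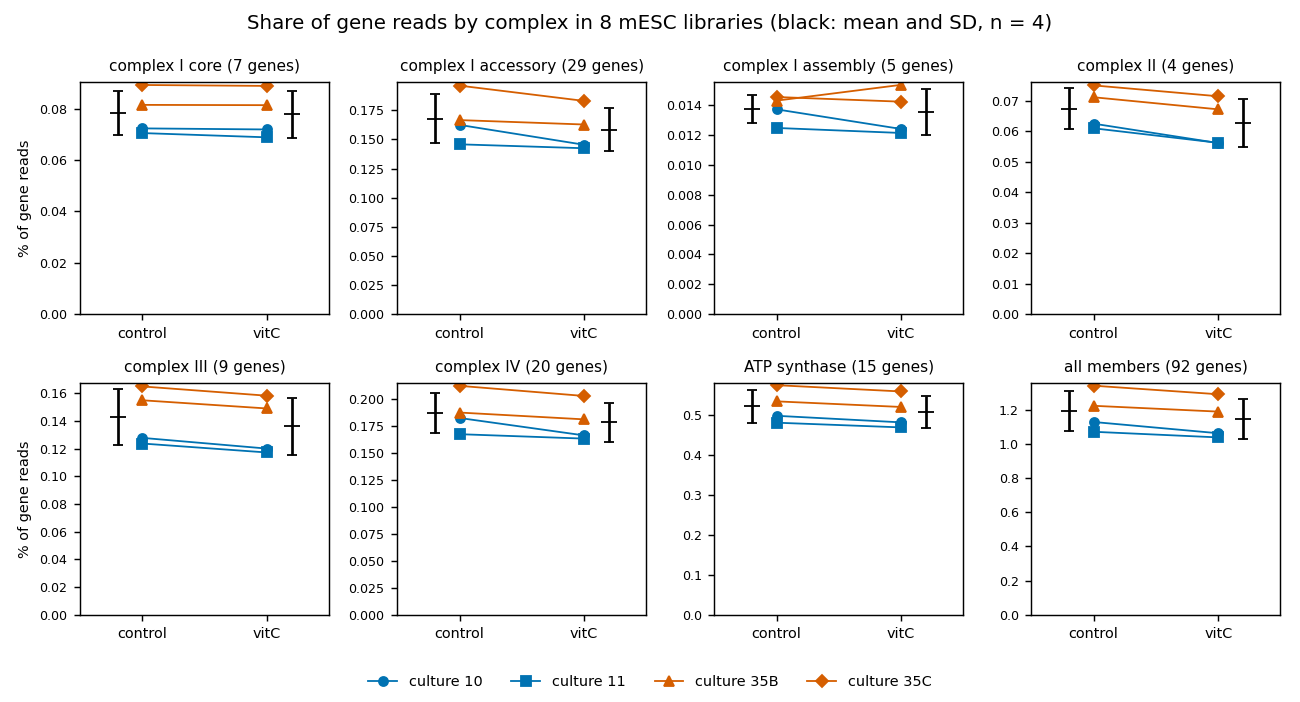
Percent of gene reads (vertical axes, each from 0) held by each complex and by all members in control and vitC libraries of the 4 mESC cultures, with lines joining libraries of 1 culture and black marks for the mean and SD over 4 libraries. For all members the lines go down a little in each culture, and cultures 35B and 35C lie above 10 and 11.

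The cultures themselves differed far more than the treatments. When the mean of the 2 libraries of each culture was compared, 35B and 35C against 10 and 11, 41 of the 88 members were higher and 1 was lower (limma, 2 cultures against 2), against 14.7% and 18.1% of all genes. The 41 include Cox6a2, whose call is not read as a result, since it passed the filter only through 35B and 35C. The median difference was 0.17 for the members and -0.01 for all genes, and 80 of 88 members were above 0. In 40 members all 4 libraries of 35B and 35C lay above the other 4, against 15.3% of all genes, and in 0 members below, against 16.8%. The 40 also include Cox6a2. The share of repeat counts from ribosomal RNA was 42.0% to 51.5% in the libraries of cultures 10 and 11 and 60.0% to 63.1% in those of 35B and 35C, and the labels, which give total RNA for all 8, name 2 kits (rRNA depletion or mRNA isolation) without saying which library had which, while the study's methods name rRNA depletion only. The labels give only the numbers of the cultures, so a difference between cultures and one between their library preparations cannot be told apart. The names 35B and 35C share a number, and how separate these 2 cultures were is not known.

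The higher members were spread over the complexes: 8 of 9 in complex III, 6 of 7 in the complex I core, 9 of 15 in ATP synthase, 2 of 4 in complex II, 5 of 16 in complex IV, 8 of 29 complex I accessory subunits, 1 of 5 assembly genes and 2 of 3 other names. The 5 of complex IV include Cox6a2. Among members of 1000 bp or more, 18 of 37 were higher, against 14.1% of all such genes, and among shorter ones 21 of 48, against 23.4%. With control libraries alone, 21 members were higher and 1 lower (6.96% and 9.93% of all genes), and with vitC libraries alone 31 and 0 (9.42% and 12.6%). edgeR on reads summed per culture called 45 higher and 1 lower, against 16.8% and 17.7%.

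Sdhb (chr4:140961203-140979193), the iron-sulphur subunit of complex II, differed most. It was at 91.3 and 95.3 CPM in the controls and 75.7 and 87.3 CPM in the vitC libraries of cultures 10 and 11, and at 142 and 146 CPM in the controls and 135 and 142 CPM in the vitC libraries of 35B and 35C. The sets did not overlap. The difference was 0.57 on the variance-stabilised scale (standard error 0.06, limma adjusted p = 2.33e-05), and 1.63-fold in edgeR (adjusted p = 4.46e-06).

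Atp5o, the OSCP subunit that joins the stalk of ATP synthase to its catalytic head, was at 135 to 151 CPM in the 4 libraries of 10 and 11 and at 197 to 231 CPM in those of 35B and 35C. Its difference was 0.51 (limma adjusted p = 9.66e-05). Uqcrq (chr11:53427922-53430831), a small complex III subunit, was at 64.2 to 80.3 CPM against 97.9 to 136 CPM (difference 0.47, adjusted p = 0.000509 by limma). The libraries of the sets were apart for both genes. Ndufs4 (chr13:114287795-114388258), an accessory subunit needed for a stable complex I, was at 67.9 to 79.1 CPM against 99.7 to 118 CPM, a difference of 0.43 (limma adjusted p = 0.000245). Atp5g1 (chr11:96068852-96075670), 1 of the genes for the c subunit of the rotor ring, was at 51.7 to 68.6 CPM against 84.4 to 93.3 CPM, also a difference of 0.43 (limma adjusted p = 0.000138). Cyc1 (chr15:76343523-76346260), cytochrome c1, was at 189 to 200 CPM against 254 to 270 CPM, with a difference of 0.39 (limma adjusted p = 0.000304). None of these sets overlapped.

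Cox6b2, the testis-type paralogue of Cox6b1, was the only member that was lower. It was at 22.6 to 30.1 CPM in the libraries of 10 and 11 and at 13.4 to 23.7 CPM in those of 35B and 35C, and the vitC library of 35C overlapped the first set. The difference was -0.31 (standard error 0.076, limma adjusted p = 0.00709), and with vitC libraries alone it was -0.22 (adjusted p = 0.24). Cox6a2, a heart and muscle paralogue, was among the higher members with only 2 reads summed over cultures 10 and 11 and 18 over 35B and 35C, a ratio of 10.3 with an exact 95% interval of 2.47 to 91.8. It had reads in 2 of 4 libraries of the first set and 4 of 4 of the second, so it passed the filter only through the set where it is high. Its ratio and interval are therefore not read as a result, and no p is given.

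**Figure D4:**
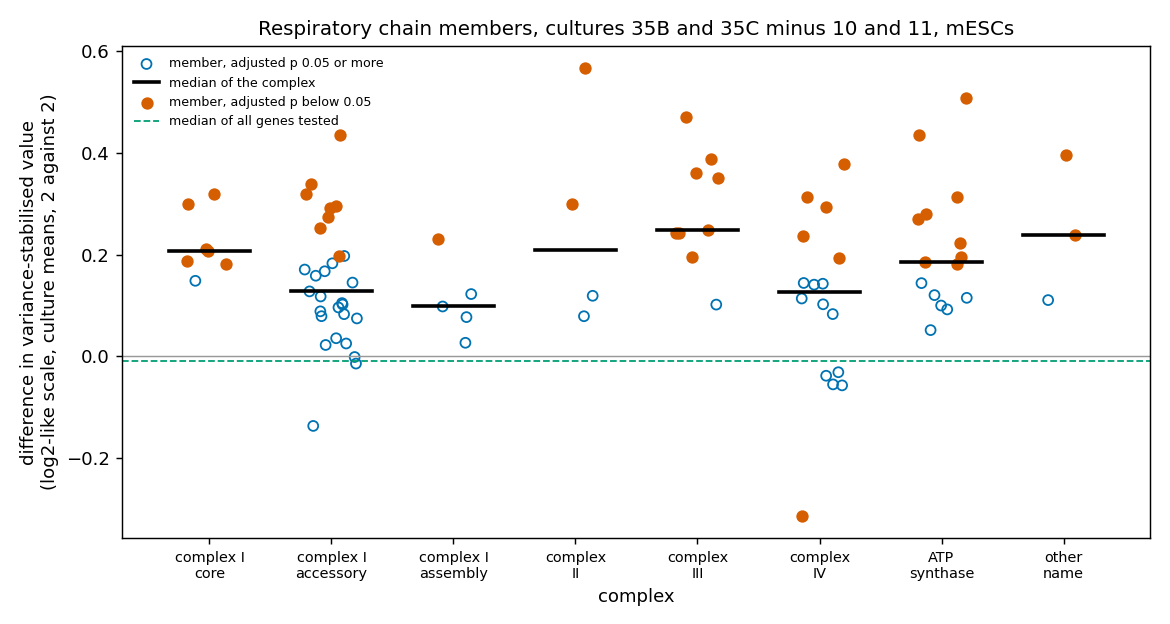
Difference between cultures 35B and 35C and cultures 10 and 11 in mESCs (vertical axis, variance-stabilised log2-like scale, culture means, 2 against 2) for the 88 tested members by complex; filled points passed an adjusted p of 0.05 and bars are medians. Of the 42 filled points, 41 lie above 0 and 1, Cox6b2, lies below. The 41 include Cox6a2, which passed the detection filter only through 35B and 35C and is not read as a result.

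The response to vitC was then compared between the sets. For 0 of 88 members did it differ (limma on pair differences, 2 pairs against 2), against 0% of all 14631 genes after adjustment. At an unadjusted p under 0.05 it also differed for 0 members, against 391 higher and 668 lower of the 14631 genes. edgeR with an interaction term called 0 members, and 16 higher and 19 lower genes in all. A p above the threshold with 2 pairs against 2 does not show that the sets responded alike.

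RefSeq promoter windows (GRCm38.p6, 250 bases before to 50 after a start, the first listed per gene) were at hand for 70 of the 88 tested members and were searched on both strands for letters of factors known for respiratory genes. The NRF1 letters GCATGCGC were in 11 of 70 windows (15.7%), against 5.45% of the windows of tested genes and 2.80% of all 27025 windows. The YY1 letters AAGATGGC were in 8 (11.4%, against 4.41% of tested genes), and the ETS letters CCGGAAG, read by GABP, in 16 (22.9%, against 17.3%). The letters ACGTG of the hypoxia response element were in 16 (22.9%, against 25.4%), and CCAAT in 32 (45.7%, against 39.4%). Of the members higher in 35B and 35C, 32 had a window. The NRF1 letters were in 7 of these (21.9%), ETS in 12 (37.5%) and YY1 in 3 (9.38%). ACGTG was in 10 (31.25%) and CCAAT in 13 (40.6%). Whether any of the letters go with the difference between the sets was not tested. Of the 8 members lower with vitC, 6 had a window, with 1 each for the NRF1, ETS, YY1 and ACGTG letters and 2 for CCAAT. A match only says that the letters are there.

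The windows of the largest fall with vitC and of the paralogue with few reads (Atp5k and Cox7b2) and of 2 large differences between the sets (Sdhb and Ndufs4) are shown 5′ to 3′ along the gene, with capitals for the NRF1, ETS and YY1 letters on either strand. In Atp5k the stretch GCGCATGCGC reads the same on both strands and holds 2 overlapping matches to the NRF1 letters on opposite strands, with ETS letters closer to the start. Sdhb also has both, Ndufs4 has the YY1 letters near its end, and Cox7b2 has none of the 3.
Atp5k, chr5:108434350-108434649, minus strand: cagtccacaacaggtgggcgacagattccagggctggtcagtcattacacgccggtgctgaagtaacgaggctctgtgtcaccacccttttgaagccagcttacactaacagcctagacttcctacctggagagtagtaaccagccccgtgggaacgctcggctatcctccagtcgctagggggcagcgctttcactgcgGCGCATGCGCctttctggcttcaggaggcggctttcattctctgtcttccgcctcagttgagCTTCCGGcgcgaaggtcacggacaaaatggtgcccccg
Cox7b2, chr5:71548156-71548455, minus strand: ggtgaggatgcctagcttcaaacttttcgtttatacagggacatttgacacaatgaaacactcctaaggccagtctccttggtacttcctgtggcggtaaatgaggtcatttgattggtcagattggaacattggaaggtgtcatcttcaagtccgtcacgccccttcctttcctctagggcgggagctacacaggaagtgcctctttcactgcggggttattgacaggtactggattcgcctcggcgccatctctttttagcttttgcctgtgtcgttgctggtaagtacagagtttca
Sdhb, chr4:140961021-140961320, plus strand: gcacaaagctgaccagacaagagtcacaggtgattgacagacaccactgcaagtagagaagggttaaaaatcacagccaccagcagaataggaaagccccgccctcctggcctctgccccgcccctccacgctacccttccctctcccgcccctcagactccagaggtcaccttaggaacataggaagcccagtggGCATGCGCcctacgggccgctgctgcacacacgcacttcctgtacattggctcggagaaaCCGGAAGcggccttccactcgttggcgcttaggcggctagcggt
Ndufs4, chr13:114388045-114388344, minus strand: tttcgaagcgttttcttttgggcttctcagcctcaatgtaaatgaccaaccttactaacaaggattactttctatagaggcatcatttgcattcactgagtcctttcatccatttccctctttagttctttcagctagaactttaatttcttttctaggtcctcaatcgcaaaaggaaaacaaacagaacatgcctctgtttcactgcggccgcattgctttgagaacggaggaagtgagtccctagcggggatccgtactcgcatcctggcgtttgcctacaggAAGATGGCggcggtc

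Several complex IV subunits have a ubiquitous form and a form found in particular tissues, and in mESCs the share of the tissue form differed from pair to pair. Cox4i2, the hypoxia-inducible partner of Cox4i1, had 2 reads in all 8 libraries beside 14436 of Cox4i1. Ndufa4l2, a known hypoxia-inducible gene, had 0, 0, 4 and 4 reads in control and 0, 0, 0 and 1 with vitC, so it was seen in cultures 35B and 35C only, and the sums of 8 and 1 gave a ratio of 0.148 with an exact 95% interval of 0.00334 to 1.10. Cox8b and Cox8c were at 0. Cox6b2 made up 14.0%, 14.9%, 8.40% and 7.67% of Cox6b reads in the controls of cultures 10, 11, 35B and 35C, and 12.9%, 13.1%, 6.72% and 9.65% with vitC, again following the sets. Cox7a1, the muscle form, was at 4.13%, 4.57%, 4.36% and 4.29% of the summed Cox7a1 and Cox7a2 reads in control and 7.88%, 7.64%, 4.47% and 6.30% with vitC. Each vitC value was above all controls but that of 35B, which lay within their range.

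Genes around the respiratory chain were counted from lists, which were chosen with earlier results of these data known. The counts are to be read against the 6.36% of all genes called higher and 4.44% called lower by blocked limma. Of 31 tested assembly factors and other proteins of the chain that the naming rule does not take, Acad9, a complex I assembly factor, rose from 66.3 ± 4.35 to 98.0 ± 9.63 CPM (unpaired limma adjusted p = 0.0406), and blocked limma added 2 that fell, cytochrome c (Cycs, from 45.8 ± 5.75 to 36.8 ± 3.73 CPM, adjusted p = 0.0118) and the ATP synthase inhibitor Atpif1 (from 84.0 ± 14.4 to 68.1 ± 14.5 CPM, adjusted p = 0.0229). The list had 20 of 31 differences below 0, with a median of -0.02. Of 13 regulators of mitochondrial genes, Pprc1 (adjusted p = 0.000389) and Lrpprc (0.0392) rose with blocked limma and 0 fell. Of 22 TCA cycle and pyruvate entry genes, 5 rose and 0 fell with blocked limma, among them Ogdh, a subunit of 2-oxoglutarate dehydrogenase (from 222 ± 29.1 to 268 ± 28.3 CPM, adjusted p = 0.000189). Their median difference was 0.04. Of 23 glycolysis and HIF-linked genes, 9 fell and 2 rose with blocked limma, with a median of -0.08. Lactate dehydrogenase, Ldha, fell from 290 ± 47.2 to 165 ± 16.6 CPM, and passed unpaired too (limma adjusted p = 0.0221). The kinase Pdk1 was in both of the last 2 lists and is counted among the genes that rose in each (blocked limma adjusted p = 0.0493).

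In hESCs, with 1 library a group, no test was possible and only counting error is known. Of the 101 human members, 87 had at least 50 reads over both libraries, and 0 of these differed by 1.5-fold or more, against 4.69% of the 13219 genes with as many reads. The members held 0.976% of gene reads in control and 1.02% in vitC. The median log2 ratio of vitC over control was 0.06, against 0.003 for all genes, and 63 of 87 (72.4%) were above 0, against 50.6%. The exact 95% counting interval lay above 0 for 25 of the 87 members and below it for 5, against 14.2% and 15.3% of the 13219 genes. Reads of these members ran from 86 and 111 (UQCRHL) to 12768 and 14317 (ATP5B) in control and vitC. Counting error shrinks with reads, and the shares over all genes were not matched for read number. Neither the 1.5-fold count nor the interval counts therefore show that the members differ from other genes.

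All 7 core subunits of complex I and all 10 complex III genes with enough reads were above 0. The counting intervals of the core subunits NDUFS3, NDUFS7, NDUFV1 and NDUFV2 included 0. In complex III only the intervals of UQCR11 and UQCRC1 did not include 0. NDUFS8, a core iron-sulphur subunit, had 945 reads in control and 1293 in vitC (log2 ratio 0.27, interval 0.15 to 0.40). The largest ratio was that of NDUFA7, an accessory subunit, with 390 and 552 reads (0.32, interval 0.13 to 0.51), followed by ATP5SL, a complex I assembly gene, with 759 and 1063 reads (0.31, interval 0.17 to 0.45). The lowest was SDHB, with 679 and 669 reads (-0.20, interval -0.36 to -0.04). These sizes are small, and the spread between cultures is unknown.

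The human counterparts of the members that fell in mESCs did not have ratios below 0 beyond counting error. ATP5I, the human name of the subunit encoded by Atp5k, had 1640 and 2052 reads (0.15, interval 0.05 to 0.24). UQCRB had 2881 and 3295 reads (0.02, interval -0.06 to 0.09), ATP5J 1338 and 1593 (0.07, interval -0.03 to 0.18) and NDUFA1 812 and 901 (-0.03, interval -0.17 to 0.11). Whether the species differ was not tested. NDUFA3 and NDUFA6 were listed at 0 in both libraries, as were COX4I2, COX6A2, COX7A1, COX7B2 and COX8C, which leaves COX7B2 without a human value.

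**Figure D5:**
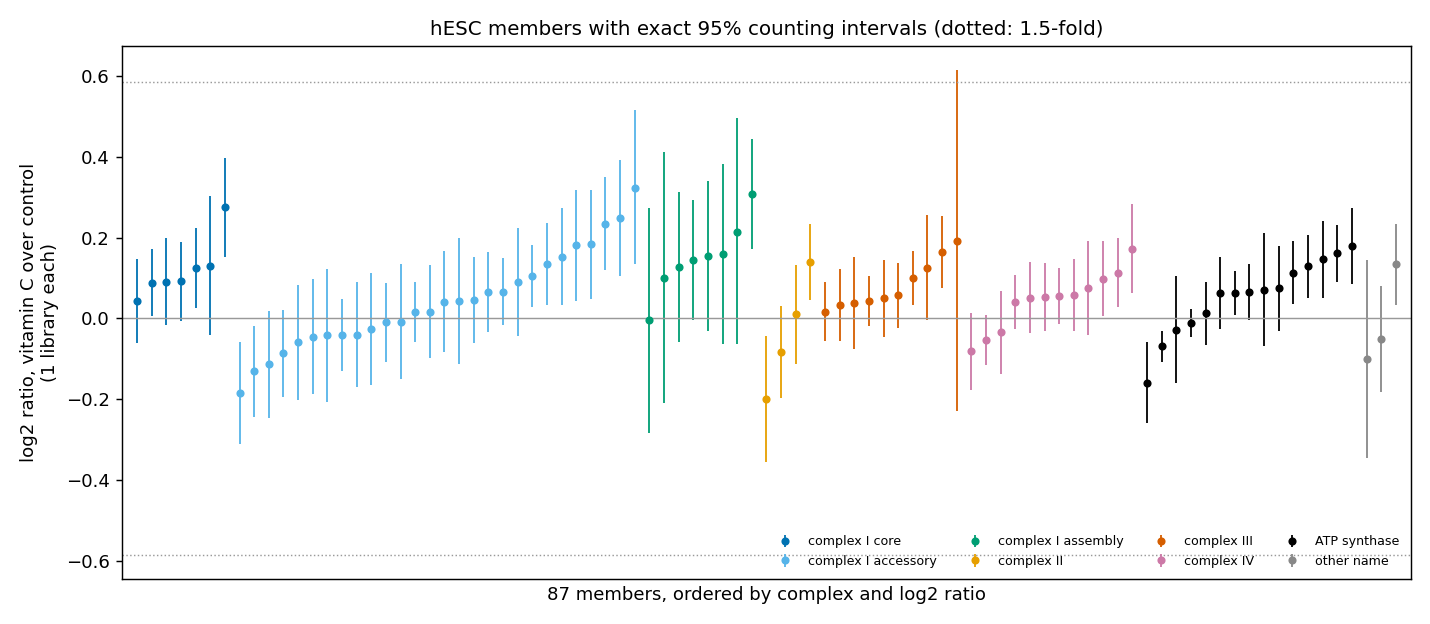
Log2 ratio of vitC over control reads in hESCs (vertical axis, 1 library each, deposited scaling) for the 87 members with at least 50 reads, ordered by complex, with exact 95% counting intervals and dotted lines at 1.5-fold. No point passes a dotted line, and all points of the complex I core and complex III lie above 0, many with intervals that include 0.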

How the data were processed

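Per the labels and methods, the authors trimmed reads (Trim Galore), mapped them to mm10 or hg38 and counted them per gene (SQuIRE, HISAT2), from directional libraries, and for genes they deposited DESeq2 variance-stabilised values on a log2 scale. Inverting the transformation, with the smallest step of each library taken as 1 read, gave whole reads for 100% of 116385 mESC and 38034 hESC values above the lowest (within 0.0001 read). For repeats the authors deposited expected counts per subfamily, used here only for the ribosomal share, and 4 other per-sample columns of that table were not used. All samples were grouped by their labels.

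The mESC fit took genes with a value over the table's minimum in 4 or more libraries and was done with limma 3.58.1 (trend), unpaired, in R 4.3.3, with Benjamini-Hochberg adjustment over all genes. Alternatives were the replicate block, edgeR 4.0.16 and DESeq2 1.42.0 on recovered reads, other filters, quantile normalization and libraries left out. The numbers pair the libraries, since the labels give both libraries of a number 1 culture name. Within a number the departures from group means had r of 0.626 to 0.765, and between numbers -0.709 to 0.665. These ranges overlap, so r alone does not set the pairs. CPM were TMM scaled. Lengths and positions came from GENCODE on GRCm38 (principal transcript, 85 of 88 tested members). Counting intervals were exact (Clopper-Pearson, 95%), and reflect counting error alone, since PCR copies were not told apart by molecular identifiers. p-values measure the spread between these libraries, and nothing in the sources used here says how separate the cultures were. The fits were tested on simulated data.

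Members and lists were chosen with earlier results of these data known. Named members were those past the threshold unpaired, those past it with the block and the same way in 4 of 4 pairs, the extremes of each complex in difference and in level, the core subunits and the paralogue pairs. Atp5j2, Cox6a2, the other members of the culture comparison, the human examples and the promoter windows were chosen after their values were seen. The values of 1 gene that this rule takes are not reported here.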

Additional observations from a re-analysis of the deposited data

Results flagged for a closer look

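With 4 libraries in a group, chance sets 1 library apart in about 1 in 20 groups by the measure used here, the gap to the nearest library divided by the group's range. Where many genes are looked at, some groups therefore pass by chance alone, and those below are not read as results. Sdha passed it in control mESCs (0.885), where culture 35C lay at 335 CPM and the other 3 libraries at 295 to 298. Ndufaf2, a complex I assembly factor, passed it in control (0.859), where culture 11 lay at 7.36 CPM and the others at 9.39 to 9.81. Atp5sl passed it with vitC (0.857), where culture 35B lay at 38.1 CPM and the others at 25.3 to 27.1.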

How the results depend on the processing

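The count of members called without pairing, 0 higher and 0 lower, stayed at 0 under the other filters, scalings and tools run without the block, with subunits only, with a 1.5-fold minimum, and with each library left out (0 to 0). Over all genes, the fits with other filters, scalings, tools or 1 library left out called 19 to 102 higher and 0 to 16 lower. With the replicate block, 1 was higher and 8 lower by limma, 1 and 11 by edgeR, and 0 and 1 by DESeq2. Blocked alternatives chosen after seeing the data gave 1 and 11 with quantile normalization, and, without pairs 1, 2, 3 and 4, 1, 0, 0 and 1 higher and 0, 5, 6 and 3 lower. Over all genes these fits called 927 higher and 768 lower with quantile normalization, and 557, 631, 759 and 617 higher and 313, 437, 531 and 342 lower without pairs 1 to 4, against 931 and 650 with all pairs. The 1 member higher is Cox7b2. With 1 library left out, the difference in the share of all members ranged from -0.0942 to 0.00425 percentage points. Between the culture sets, control libraries alone gave 21 members higher, where all libraries gave 41, and vitC libraries alone gave 0 lower in place of 1 (fewer libraries in each).

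The vitC difference changed sign for 4 members near 0. Uqcrc2 turned to -0.016 with quantile normalization, with or without the block, to -0.0048 in edgeR, to -0.024 in replicates 3 and 4 alone, to -0.0076, -0.00084 and -0.0024 with the block without pairs 1, 2 and 4, and ranged from -0.068 to 0.071 without 1 library. Atp5a1 turned to -0.033 with quantile normalization, with or without the block, and ranged from -0.011 to 0.044 without 1 library. Sdhc turned to 0.026 with the block without pair 1 and ranged from -0.065 to 0.017 without 1 library, and Cox4nb ranged from -0.15 to 0.011. Of the comparisons of a named member with an alternative, 414 kept direction and side of the threshold, 40 passed it where the reported one did not, 1 no longer passed it and 21 changed sign. Depth limits the paralogues with few reads most.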
